A study of Mus musculus with 22 samples.

Results

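The genes of 6 receptors of chemokines and of the related attractant chemerin, *Cxcr4*, *Cx3cr1*, *Ccr1*, *Ccr2*, *Ccrl2* and *Cmklr1*, were examined in serially passaged mouse embryonic fibroblasts (MEFs). They were chosen by name, with earlier results of these data known, from 55401 gene identifiers, and all 6 were found. MEFs are primary cells grown from embryos, and on serial passage they stop dividing and become senescent. RNA-seq was run on 22 libraries from 2 sets of MEFs, to compare the transcriptome of late WT cells with that of early WT cells and of late cells without S6 kinases. The *S6K1* set held 4 libraries of *S6K1* WT MEFs at passage 3 (early WT), 4 of *S6K1* WT MEFs at passage 8 (late WT) and 3 of *S6K1* KO MEFs at passage 8 (late KO). The *S6K1/S6K2* set held 4 libraries of WT MEFs at passage 3, 4 of WT MEFs at passage 8 and 3 of *S6K1/S6K2* double knockout MEFs at passage 8 (late DKO). The knockouts came from the germline, and the labels name no treatment of these cultures. According to the study's methods, WT and KO MEFs of the *S6K1* set came from littermates, whereas the WT MEFs set against DKO MEFs came from other mothers, earlier in the breeding, so litter and genotype cannot be told apart in that set. Each library was treated as 1 replicate. Knockout MEFs at passage 3 were not analysed here, so KO and DKO MEFs were compared with WT MEFs at passage 8 and, across passage and genotype at once, with early WT MEFs.

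Chemokine receptors are G-protein-coupled receptors with which leukocytes sense gradients of small secreted proteins and move along them. After binding, the inhibitory G protein splits, PI3Kγ and Rac are engaged and the cytoskeleton is rearranged, while GRKs and β-arrestins switch the receptor off. Monocytes and tissue macrophages carry several of them, and CXCR4, the receptor of CXCL12, is also used by stem and progenitor cells. CX3CR1 binds the membrane-tethered chemokine CX3CL1 and is typical of tissue-resident macrophages and microglia. CCR1 binds inflammatory CC chemokines such as CCL3, CCL5 and CCL9, and CCR2, the receptor of CCL2, brings monocytes into tissue. CCRL2 binds chemerin and presents it to other cells without signaling itself, and CMKLR1 is the chemerin receptor that does signal.

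In the RefSeq annotation of GRCm38.p6, *Cxcr4* lies at chr1:128588199-128592299 and *Cmklr1* at chr5:113612355-113650475. The other 4 lie on chromosome 9, *Ccrl2* at chr9:111054834-111057518, *Cx3cr1* at chr9:120048683-120068296, *Ccr1* at chr9:123962126-123968692 and *Ccr2* at chr9:124101918-124109140. *Cx3cr1* overlaps the predicted gene *Gm33858* and *Cmklr1* overlaps *Gm15736*, so counts of these receptors may include reads of the overlapping gene. The 250 bases upstream of the annotated start are shown for the 3 receptors that were higher in late than in early WT MEFs of at least 1 set, because a promoter is where the compared RNA levels begin. The windows are from RefSeq (GRCm38.p6), all on the minus strand and written 5′ to 3′, at chr1:128592300-128592549 for *Cxcr4*, chr9:120068297-120068546 for *Cx3cr1* and chr9:111057519-111057768 for *Ccrl2*, the first of its 3 annotated starts. Capitals mark letters that match 1 of 6 motifs on either strand.
Cxcr4: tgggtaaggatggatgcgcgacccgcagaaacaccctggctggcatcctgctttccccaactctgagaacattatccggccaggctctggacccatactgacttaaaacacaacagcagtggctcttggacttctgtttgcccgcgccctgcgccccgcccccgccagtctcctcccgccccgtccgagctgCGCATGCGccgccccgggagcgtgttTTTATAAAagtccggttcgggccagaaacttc
Cx3cr1: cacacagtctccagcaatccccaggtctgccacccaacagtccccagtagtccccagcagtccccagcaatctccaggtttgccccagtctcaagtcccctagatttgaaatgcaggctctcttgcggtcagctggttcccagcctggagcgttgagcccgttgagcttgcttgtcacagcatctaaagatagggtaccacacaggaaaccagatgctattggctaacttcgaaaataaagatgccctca
Ccrl2: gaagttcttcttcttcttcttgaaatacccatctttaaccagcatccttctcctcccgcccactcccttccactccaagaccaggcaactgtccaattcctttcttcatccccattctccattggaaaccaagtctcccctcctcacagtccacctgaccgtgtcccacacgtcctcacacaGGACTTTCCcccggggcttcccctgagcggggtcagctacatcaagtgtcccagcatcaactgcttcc

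The capitals in *Cxcr4* are the core of the NRF1 motif, CGCATGCG, at −58 to −51 from the start, and the TATA box motif TATAAA at −30 to −25, with which a match on the other strand at −32 to −27 overlaps. The capitals in *Ccrl2* are the NF-κB motif GGACTTTCC, at −68 to −60. The *Cx3cr1* window held no match. Of 32851 upstream windows of the same length, 12.4% held the TATA box letters, 1.55% the NRF1 letters and 0.283% the NF-κB letters. The AP-1 motif TGANTCA was found in 6.75% of windows, the PU.1 motif GAGGAAGT in 2.44% and the C/EBP motif TTGCGCAA in 0.164%, and in none of the 6 receptors' first windows. The motifs were chosen after the windows had been seen, and a match of letters describes the window only. GC content was 61.2% upstream of *Cxcr4*, 53.6% upstream of *Cx3cr1* and 54.0% upstream of *Ccrl2*.

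The total count on genes was 10742454 to 17314832 per library, so that 3 counts, the limit that a count of 0 allows, corresponded to 0.173 to 0.279 CPM, the gene's counts scaled to a common library size. Such limits cover counting error only. No library duplicated another of its group: chi-square per degree of freedom was 20.6 to 266 over the 30 pairs of the same group. Pairs from different groups were not compared in this way. The sources do not name the library that came from each embryo, so *P* values measure the spread between these libraries. *Rps6kb1*, which encodes S6K1, was lower in late KO than in late WT MEFs (20.1 ± 5.15 CPM, SD, n = 3, against 63.7 ± 8.78 CPM, n = 4) and in late DKO MEFs (23.6 ± 4.30 against 73.5 ± 10.75 CPM), and *Rps6kb2*, which encodes S6K2, was lower in late DKO MEFs (0.804 ± 0.484 against 13.1 ± 2.56 CPM), as the labels state. From early to late WT MEFs both genes fell in the *S6K1* set (log2 fold changes between −0.68 and −0.53). In the *S6K1/S6K2* set these were between −0.46 and −0.11 and did not pass. The sum of 11 fibroblast markers, such as collagen genes, was high in every library but lower in late than in early WT MEFs. In the *S6K1* set it was 30994 to 37909 CPM in early WT, 19960 to 29244 CPM in late WT and 25030 to 28097 CPM in late KO MEFs. It was 31490 to 40722, 20597 to 28130 and 26045 to 29008 CPM in early WT, late WT and DKO MEFs of the other set. With passage 2 of the 11, *Col1a1* and *Col1a2*, passed as lower in each set, where 5.97% and 4.89% of all genes fell. None passed as higher (median log2 fold change −0.11 and −0.26). The log2 fold changes of 4 of the 11 were above 0 in each set, up to 1.55 and 1.07. The part of the fall of this sum in the receptors' differences was not tested. The 4 Y-linked genes differed between groups: they summed to 210 to 292 CPM in all 3 late KO libraries, but to more than 1 CPM in only 1 of the 4 late WT libraries of that set, and in 1 of 3 late DKO libraries against 3 of 4 late WT libraries. In early WT libraries the Y-linked genes summed to 212, 0.147, 243 and 0.857 CPM in the *S6K1* set. In those of the *S6K1/S6K2* set they summed to 0, 256, 254 and 0 CPM. Embryo sex therefore moved with genotype and with passage in part.

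Levels are given as CPM scaled by the TMM method over the 22 libraries, and differences as log2 fold changes with their standard error (SE). Genes were tested with edgeR's quasi-likelihood test at a false discovery rate of 5%, on the 3 groups of a set. In both sets 5 of the 6 receptors passed the filter on low counts and were tested. *Ccr2* was not. In the *S6K1* set, 2 of these 5 receptors, *Cxcr4* and *Cx3cr1*, rose from early to late WT MEFs and none fell, where 12.9% of the 14132 genes tested passed (6.96% rose and 5.97% fell). Of the 5, *Cxcr4*, *Cx3cr1* and *Ccrl2* rose in the *S6K1/S6K2* set and none fell, where 13.2% of 14365 genes passed (8.28% rose and 4.89% fell). Between late KO and late WT MEFs no receptor passed, against 0.0425% of genes (6 genes, 0.00708% higher and 0.0354% lower). At an unadjusted *P* under 0.05, 1499 genes and 3 of the 5 receptors (*Cxcr4*, *Ccrl2* and *Cmklr1*) were counted, and DESeq2 called 261 genes, *Cxcr4* among them. Between late DKO and late WT MEFs 3 of 5 receptors fell, again *Cxcr4*, *Cx3cr1* and *Ccrl2*, where 4.78% of genes passed (3.95% fell and 0.821% rose). The median log2 fold change of the 5 receptors was 1.40 and 2.04 with passage in the *S6K1* and *S6K1/S6K2* sets, −1.15 in late KO and −2.03 in late DKO against late WT MEFs, where the median of all genes tested lay between −0.04 and 0.01. Passage and genotype comparisons of a set share its late WT libraries, so the same libraries enter a rise and the fall set against it. The receptors were chosen with earlier results of these data known. Their counts beside the shares of all genes therefore describe them and do not test them as a set.

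**Figure D1:**
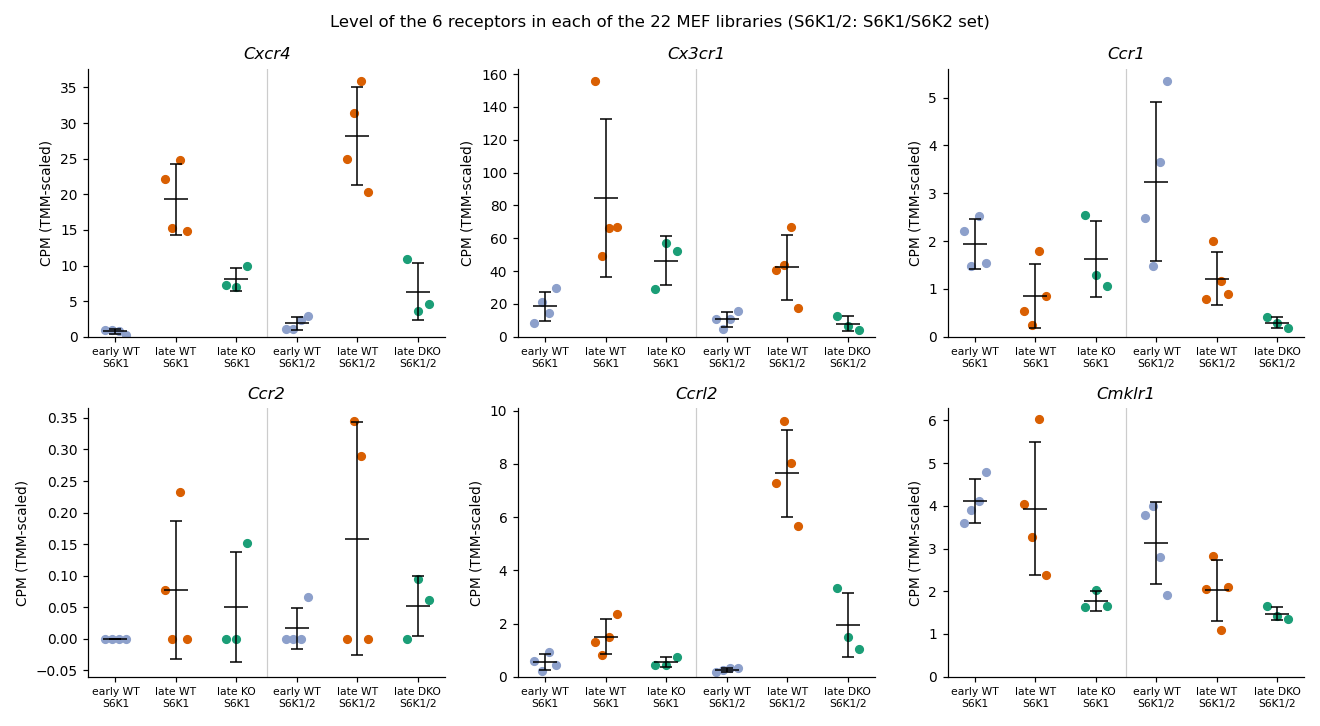
CPM of each of the 6 receptors (vertical axes, linear) in the 22 libraries, by group (horizontal axes). Points are libraries and bars are the mean and SD of a group, and the vertical line parts the *S6K1* set (left) from the *S6K1/S6K2* set (right). *Cxcr4* is above 14 CPM in all 8 late WT libraries and under 3 CPM in all 8 early WT libraries, and *Ccrl2* is above 5 CPM only in the 4 late WT libraries of the *S6K1/S6K2* set.

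Per kilobase of exon, which allows genes to be compared, *Cx3cr1* had the highest level of the 6 in early WT MEFs, 4.96 ± 2.40 CPM per kb in the *S6K1* set and 2.84 ± 1.21 in the *S6K1/S6K2* set (SD, n = 4). *Cmklr1* came next in early WT MEFs of the *S6K1* set (1.20 ± 0.151 CPM per kb), and *Ccr1* in those of the *S6K1/S6K2* set (1.14 ± 0.587 CPM per kb). In late WT MEFs *Cxcr4* and *Cx3cr1* stood first, at 10.66 ± 2.76 and 22.6 ± 12.9 CPM per kb in the *S6K1* set and at 15.6 ± 3.80 and 11.3 ± 5.37 CPM per kb in the *S6K1/S6K2* set. *Ccr2* was last in all 6 groups.

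*Cxcr4* had the largest fold change of the 5 tested receptors between early and late WT MEFs of the *S6K1* set. Its level was 0.939, 0.958, 0.884 and 0.257 CPM in the 4 early WT libraries and 22.1, 15.3, 24.9 and 14.8 CPM in the 4 late WT libraries. The groups did not overlap, and the fold change was 24.5 (log2 4.61, SE 0.33, adjusted *P* = 1.2e-05, edgeR). In the 3 late KO libraries *Cxcr4* was at 7.26, 6.99 and 9.97 CPM. All 3 lay below all late WT libraries and above all early WT libraries. The log2 fold change against late WT was −1.26 (SE 0.30), 2.39-fold lower, and did not pass (adjusted *P* = 0.193, edgeR), but passed with DESeq2 (adjusted *P* = 0.0029). Against early WT, late KO MEFs kept a log2 fold change of 3.36 (SE 0.34, adjusted *P* = 0.00027, edgeR).

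In the *S6K1/S6K2* set *Cxcr4* was at 1.13, 1.04, 2.41 and 2.97 CPM in early WT MEFs and at 24.9, 31.5, 35.9 and 20.4 CPM in late WT MEFs. This was again a gap with no overlap, 15.4-fold (log2 3.95, SE 0.43, adjusted *P* = 0.00038, edgeR). In the 3 late DKO libraries it was at 10.9, 3.58 and 4.57 CPM. The first DKO library was the highest of the 3 for *Cxcr4*, *Cx3cr1*, *Ccr1*, *Ccrl2* and *Cmklr1*. DKO MEFs were 4.44-fold below late WT MEFs (log2 −2.15, SE 0.43, adjusted *P* = 0.0174, edgeR) and above early WT MEFs (log2 1.79, SE 0.44, adjusted *P* = 0.0176). The fall of *Cxcr4*, *Cx3cr1* and *Ccrl2* in DKO MEFs was still called without the first DKO library, but without the second DKO library none of the 3 passed (adjusted *P* = 0.0983, 0.127 and 0.0953, edgeR), nor without the third one (adjusted *P* = 0.0908, 0.122 and 0.0633), with log2 fold changes between −2.30 and −1.64.

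*Cx3cr1* also rose with passage in both sets, with more spread between libraries. In the *S6K1* set it was at 8.56, 21.1, 14.8 and 29.5 CPM in early WT MEFs and at 156, 49.0, 66.2 and 66.8 CPM in late WT MEFs. The first late WT library stood far above the others, and the groups did not overlap (4.53-fold, log2 2.18, SE 0.44, adjusted *P* = 0.0065, edgeR). Late KO MEFs had 29.4, 57.2 and 52.4 CPM, which overlapped late WT (log2 −0.87, SE 0.46, adjusted *P* = 0.543) and, by their lowest library, early WT (log2 1.31, SE 0.45, adjusted *P* = 0.0785, or 0.0282 with DESeq2). This last difference also passed without the first late WT library and with the Y-linked genes as a covariate (adjusted *P* = 0.0437 and 0.0491, edgeR). WT and DKO MEFs gave lower values: *Cx3cr1* was at 10.6, 4.85, 11.1 and 15.8 CPM in early WT MEFs, at 40.9, 43.5, 66.8 and 17.8 CPM in late WT MEFs and at 12.96, 6.41 and 4.26 CPM in late DKO MEFs. All late WT libraries lay above all early WT and all DKO libraries. The rise was 4.12-fold (log2 2.04, SE 0.46, adjusted *P* = 0.0164, edgeR) and the fall in DKO MEFs 5.39-fold (log2 −2.43, SE 0.53, adjusted *P* = 0.0271). DKO MEFs overlapped with early WT MEFs, with the lowest DKO library below all early WT libraries (log2 −0.39, SE 0.51, adjusted *P* = 0.629, edgeR). The rise lost its call without the first early WT library (adjusted *P* = 0.0556, edgeR), and the fall in DKO MEFs also without late WT replicate 2 or 3 (adjusted *P* = 0.0564 and 0.0588) and with the Y-linked genes as a covariate (adjusted *P* = 0.0576). Both were lost without the filter on low counts (adjusted *P* = 0.0659 and 0.108).

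*Ccrl2* differed between the 2 sets. In the *S6K1* set it was at 0.607, 0.221, 0.942 and 0.429 CPM in early WT MEFs, at 1.32, 0.798, 1.51 and 2.37 CPM in late WT MEFs and at 0.423, 0.433 and 0.756 CPM in late KO MEFs. Early and late WT MEFs overlapped, and KO MEFs lay below all late WT libraries, but neither difference passed (log2 1.40, SE 0.49, adjusted *P* = 0.0812, and log2 −1.47, SE 0.54, adjusted *P* = 0.362, edgeR). The first of these passed with DESeq2 (adjusted *P* = 0.0446), with the Y-linked genes as a covariate (0.0451), with a fit on all 6 groups (0.0296) and without early WT replicate 3 (adjusted *P* = 0.0498, edgeR). *Ccrl2* of the *S6K1/S6K2* set was at 0.170, 0.245, 0.326 and 0.330 CPM in early WT MEFs (3 to 5 counts per library) and at 7.28, 9.61, 8.04 and 5.66 CPM in late WT MEFs. This rise was 28.8-fold (log2 4.85, SE 0.42, adjusted *P* = 7.4e-05, edgeR). Its size is limited by depth, because the early WT counts were near 3, and *Ccrl2* passed the filter there through the late libraries. Late DKO MEFs had 3.32, 1.51 and 1.05 CPM, 3.92-fold below late WT MEFs (log2 −1.97, SE 0.38, adjusted *P* = 0.0147) and above early WT MEFs (log2 2.88, SE 0.45, adjusted *P* = 0.0017).

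*Cmklr1*, the other chemerin receptor, did not rise with passage. In the *S6K1* set it was at 3.59, 3.91, 4.12 and 4.802 CPM in early WT MEFs, at 4.04, 3.27, 6.03 and 2.37 CPM in late WT MEFs and at 1.62, 2.04 and 1.66 CPM in late KO MEFs. The WT groups overlapped (log2 −0.07, SE 0.29, adjusted *P* = 0.911, edgeR). Late KO MEFs lay below all 8 WT libraries of the set, with a log2 fold change of −1.15 (SE 0.33, adjusted *P* = 0.239) against late WT and of −1.21 (SE 0.33, adjusted *P* = 0.0344) against early WT MEFs. The latter call was lost without any 1 of the 3 KO libraries or of early WT replicates 2, 3 and 4 (adjusted *P* = 0.0563 to 0.117), and without the filter on low counts (adjusted *P* = 0.0640). The levels of *Cmklr1* in the *S6K1/S6K2* set were 3.80, 3.99, 2.80 and 1.91 CPM in early WT MEFs, 2.06, 2.84, 1.09 and 2.10 CPM in late WT MEFs and 1.66, 1.41 and 1.36 CPM in late DKO MEFs. Late WT libraries overlapped with those of both other groups, DKO lay below all early WT libraries, and no difference passed (adjusted *P* = 0.255 for passage, 0.580 for genotype and 0.0736 for DKO against early WT, edgeR). The last of these passed with DESeq2 (adjusted *P* = 0.0420), with a fit on all 6 groups (0.0425) and without early WT replicate 4 or late WT replicate 3 (adjusted *P* = 0.0443 and 0.0493, edgeR).

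*Ccr1* had its highest mean level in early WT MEFs of both sets. In the *S6K1* set it was at 2.21, 1.47, 2.53 and 1.54 CPM in early WT, 0.544, 0.239, 1.80 and 0.847 CPM in late WT and 2.54, 1.30 and 1.06 CPM in late KO MEFs. These groups overlapped and no difference passed (log2 −1.15, SE 0.52, adjusted *P* = 0.173 for passage, and log2 0.89, SE 0.56, adjusted *P* = 0.614 for genotype, edgeR). *Ccr1* in the *S6K1/S6K2* set was at 2.49, 1.47, 3.65 and 5.35 CPM in early WT, 0.789, 2.01, 1.16 and 0.891 CPM in late WT and 0.415, 0.283 and 0.185 CPM in late DKO MEFs. DKO MEFs, with 5, 3 and 3 counts, lay below all WT libraries of the set. They were 10.6-fold below early WT MEFs (log2 −3.41, SE 0.59, adjusted *P* = 0.0031, edgeR), while the differences from early to late WT (log2 −1.37, SE 0.44, adjusted *P* = 0.0599) and from late WT to DKO (log2 −2.03, SE 0.60, adjusted *P* = 0.0777) did not pass. The first of these passed without the second early WT or the second late WT library (adjusted *P* = 0.0454 and 0.0442), and both passed with DESeq2 (adjusted *P* = 0.0277 and 0.0321).

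*Ccr2*, the CCL2 receptor of monocytes, had 0 counts in all 4 early WT libraries of the *S6K1* set and at most 5 counts in any of the 22 libraries. Counts above 3 were seen in 1 late WT library of the *S6K1* set (4 counts) and in 2 late WT libraries of the other set (5 and 4 counts). At this depth no difference was detectable, and no fold change is given.

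**Figure D2:**
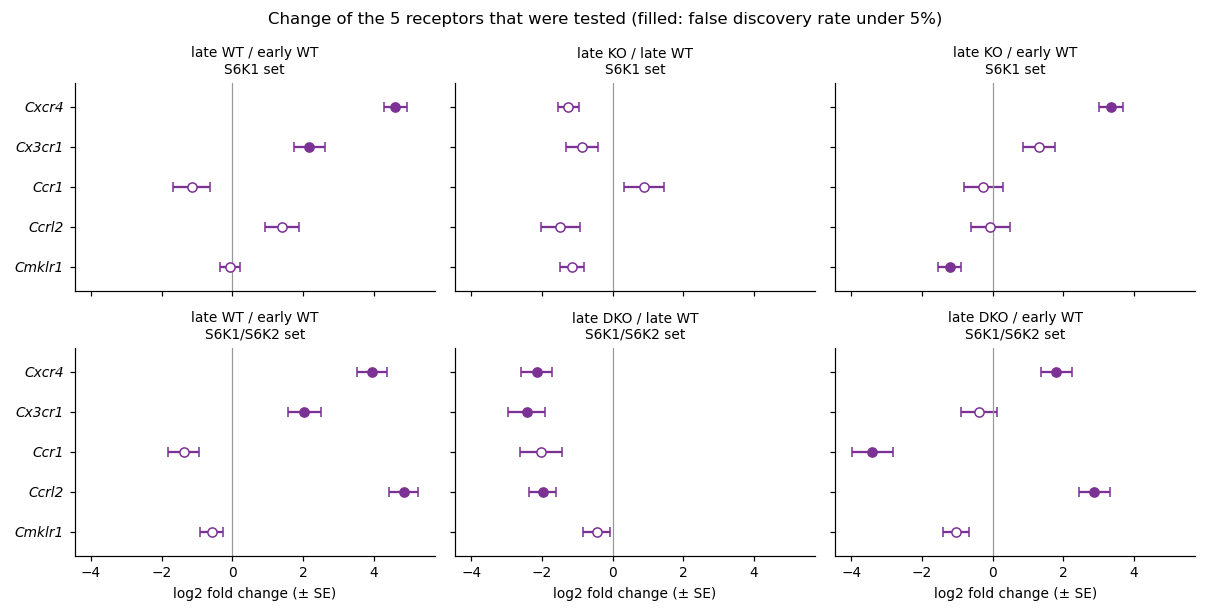
Log2 fold change (horizontal axes, bars are 1 SE) of the 5 receptors tested, for late WT against early WT, knockout against late WT, and knockout against early WT MEFs, with the *S6K1* set above and the *S6K1/S6K2* set below. Filled points passed a false discovery rate of 5%. *Cxcr4* is filled in 5 of the 6 panels, with values from −2.15 to 4.61.

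Across passage and genotype at once, 2 of 5 receptors passed between late KO and early WT MEFs, where 11.2% of genes passed (5.93% higher and 5.24% lower): *Cxcr4* was higher and *Cmklr1* lower. Between late DKO and early WT MEFs 3 of 5 passed, where 18.3% of genes passed (9.34% higher and 8.92% lower): *Cxcr4* and *Ccrl2* were higher and *Ccr1* lower. The call for *Cxcr4* there was lost without the first DKO library (log2 1.16, adjusted *P* = 0.0853, edgeR) and without the first or the second early WT library (adjusted *P* = 0.0511 and 0.05002), and also without the filter on low counts (adjusted *P* = 0.0514).

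In order of mean level, late WT MEFs were first for *Cxcr4* (28.2 ± 6.87 CPM in the *S6K1/S6K2* set and 19.3 ± 4.998 in the *S6K1* set, SD, n = 4, which overlapped), then late KO (8.07 ± 1.65) and late DKO MEFs (6.35 ± 3.96), which overlapped, then early WT MEFs (1.89 ± 0.954 and 0.759 ± 0.336), which did not overlap. For *Cx3cr1* the order ran from late WT MEFs of the *S6K1* set (84.4 ± 48.2 CPM) over late KO MEFs (46.3 ± 14.9) to late DKO MEFs (7.88 ± 4.53), and each group overlapped with the next. For *Ccrl2* late WT MEFs of the *S6K1/S6K2* set (7.65 ± 1.64 CPM) stood apart from the next group, late DKO MEFs (1.96 ± 1.20). For *Ccr1* and *Cmklr1* each group overlapped with the next.

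The effects were compared between the sets by interaction terms over all 22 libraries. The effect of passage on *Ccrl2* was larger in the *S6K1/S6K2* than in the *S6K1* set by 3.42 on the log2 scale (SE 0.63, adjusted *P* = 0.0076, edgeR), 1 of 5 receptors to pass, where 0.712% of 14886 genes passed. This call was kept in all 26 refits with another setting or without 1 library (log2 3.04 to 3.72). For *Cxcr4* the passage effects differed by −0.70 (SE 0.54, adjusted *P* = 0.707) and for *Cx3cr1* by −0.17 (SE 0.65, adjusted *P* = 0.954). For the effect of genotype no receptor passed, where 1 gene, *Rps6kb2*, did (0.00672%). At an unadjusted *P* under 0.05, 1626 genes and 2 receptors were counted, *Ccr1* (log2 difference −2.91, SE 0.83, unadjusted *P* = 0.0022, adjusted *P* = 0.284, edgeR) and *Cx3cr1* (−1.55, SE 0.71, adjusted *P* = 0.434), and DESeq2 called none of the receptors. The sets came from separate breedings, so set and litter cannot be told apart.

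Markers of macrophages, leukocytes that carry several of these receptors, moved with *Cxcr4*, *Cx3cr1* and, in the *S6K1/S6K2* set, *Ccrl2*, while the mean levels of *Ccr1* and *Cmklr1* were lower in late than in early WT MEFs. Of 24 macrophage markers 23 passed the filter, and only *Cd163* was at 0 in all libraries. The others included the defining genes *Cd68*, *Adgre1* and *Itgam*. From early to late WT MEFs 22 of 23 rose in each set, where 6.96% and 8.28% of all genes rose (median log2 fold change 2.96 in the *S6K1* set and 2.57 in the *S6K1/S6K2* set, against −0.04 and 0.01 over all genes tested). Between late KO and late WT MEFs none passed (median −0.86, against −0.01), where 0.0425% of all genes passed. Between late DKO and late WT MEFs 21 fell (median −2.33, against −0.01), where 3.95% of all genes fell. Against early WT MEFs 20 were higher in late KO MEFs, where 5.93% of all genes were higher. In late DKO MEFs 1 was lower and none was higher, where 8.92% of all genes were lower and 9.34% higher. Their summed level was 541 to 1228 CPM in early WT, 5872 to 12124 CPM in late WT and 3958 to 5299 CPM in late KO MEFs, while the sums of the *S6K1/S6K2* set ran from 660 to 2209 CPM in early WT, from 8076 to 13836 CPM in late WT and from 1033 to 3703 CPM in DKO MEFs. Markers of T and B cells summed to at most 0.236 CPM, those of mast cells to at most 1.32 CPM and those of neutrophils to at most 4.67 CPM in any library. In bulk RNA, fewer cells of a type and less RNA per cell cannot be told apart, and the part of the macrophage markers in the receptors' differences was not tested.

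Over the 22 libraries, log2 CPM of *Cxcr4* and the log2 of the summed macrophage markers had a Pearson's *r* of 0.956, and of 0.911 after the mean of each group was taken away. The values for *Cx3cr1* were 0.776 and 0.567 and for *Ccrl2* 0.7105 and 0.606. *Ccr1* had an *r* of −0.17 over all libraries and 0.597 within groups, and *Cmklr1* of −0.23 and −0.08. These values describe libraries that share depth, set and passage, and carry no test. *Lyz2* made up a large part of the sum: it averaged 4940 and 6756 CPM in late WT MEFs of the *S6K1* and *S6K1/S6K2* sets. The sums there had medians of 8637 and 10863 CPM. In the first late DKO library the macrophage markers summed to 3703 CPM, against 1149 and 1033 CPM in the others. *Cxcr4*, *Cx3cr1*, *Ccr1*, *Ccrl2* and also *Cmklr1* were each highest of the 3 in that library.

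**Figure D3:**
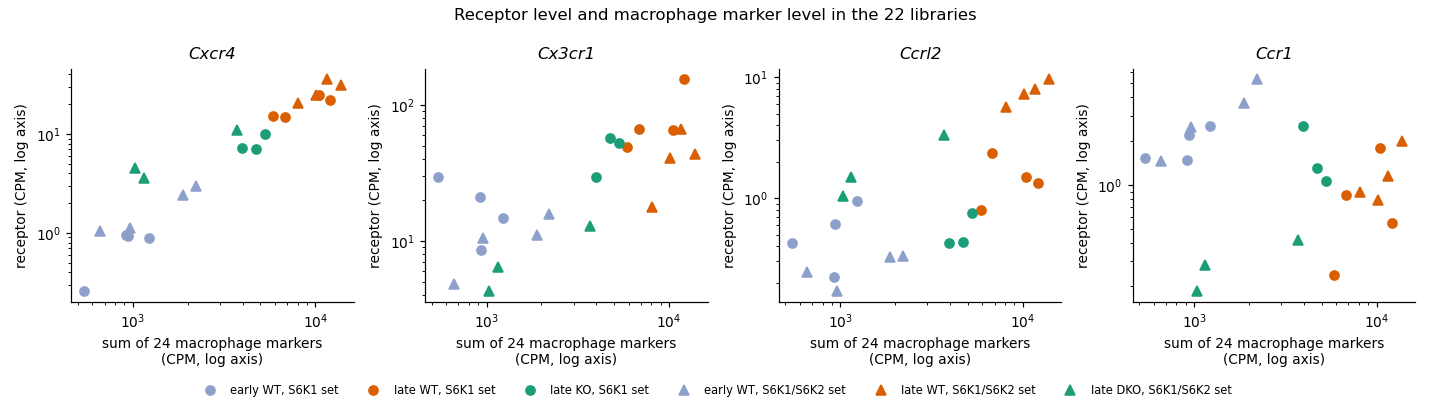
CPM of *Cxcr4*, *Cx3cr1*, *Ccrl2* and *Ccr1* (vertical log axes) against the summed CPM of 24 macrophage markers (horizontal log axes) in the 22 libraries. Circles are the *S6K1* set, triangles the *S6K1/S6K2* set, and colors the groups. *Cxcr4* follows the sum, a large part of which is *Lyz2*, across all groups (*r* = 0.956). *Ccrl2* runs higher in late WT libraries of the *S6K1/S6K2* set, and *Ccr1* does not follow the sum across groups.

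Among the receptors themselves, *Cxcr4* had an *r* of 0.760 with *Ccrl2* and of 0.620 with *Cx3cr1* over the 22 libraries (0.471 and 0.360 within groups), and *Cx3cr1* and *Ccrl2* of 0.344. Of 12998 genes compared, the 3 whose pattern was most like *Cxcr4* were *Ctss* (cathepsin S, *r* = 0.977), *Mfsd6* (0.971) and *Lyz2* (lysozyme, 0.967). For *Cx3cr1* they were *Aif1* (0.957), *Coro1a* (0.947) and *Ptpn7* (0.946). *Ctss*, *Lyz2* and *Aif1* are among the 24 macrophage markers, and *Lyz2* is a large part of their sum. For *Ccrl2* they were *Fxyd2* (0.903), *Rgs1* (0.903) and *Atf3* (0.902), for *Ccr1* *Frmd4a* (0.824), *Zdhhc16* (0.817) and *Zfp568* (0.798), and for *Cmklr1* *Poll* (0.833), *Tmem119* (0.831) and *Hdac5* (0.8288).

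Of 19 other chemokine and atypical chemokine receptors examined, 3 passed the filter, *Cxcr6*, *Ackr3* and *Ackr4*. None of the 3 passed with passage or genotype in either set. Their median log2 fold change was 0.23 and 0.16 with passage in the *S6K1* and *S6K1/S6K2* sets, 0.86 in late KO and 1.05 in late DKO against late WT MEFs. *Ackr4*, a scavenging receptor of CC chemokines, was higher in late KO than in early WT MEFs (1.81 ± 0.397 against 0.138 ± 0.0937 CPM, SD, log2 3.56, SE 0.74, adjusted *P* = 0.0117, edgeR) and in late DKO than in early WT MEFs (2.36 ± 1.05 against 0.187 ± 0.159 CPM, log2 3.64, SE 0.63, adjusted *P* = 0.0030). Early WT means lay near the level of 3 counts, and late WT means were 0.434 and 0.629 CPM. The knockout libraries, where it was highest, could thus carry *Ackr4* past the filter, and the size of these fold changes is limited by depth. *Cxcr6* and *Ackr3*, which also binds CXCL12, passed in none of the comparisons.

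All 11 ligands of the 6 receptors that were listed passed the filter. With passage 4 of 11 rose in the *S6K1* set (*Ccl3*, *Ccl6*, *Ccl8* and *Ccl9*) and 3 of 11 in the *S6K1/S6K2* set (*Ccl2*, *Ccl3* and *Ccl8*), and none fell, where 6.96% and 8.28% of all genes rose. The median log2 fold change of the 11 was 0.94 and 0.33 with passage, and −0.27 in late KO and −0.05 in late DKO against late WT MEFs, against −0.04, 0.01, −0.01 and −0.01 over all genes tested. In the *S6K1* set *Ccl3*, *Ccl6* and *Ccl8* rose by log2 1.47, 2.48 and 1.25 (adjusted *P* = 0.0142, 0.0021 and 0.0056, edgeR), and *Ccl2*, *Ccl3* and *Ccl8* in the other set by 1.31, 3.31 and 1.51 (adjusted *P* = 0.0328, 0.00074 and 0.0423). *Ccl9*, a ligand of CCR1, went from 7.59 ± 1.28 to 41.1 ± 15.3 CPM (SD, n = 4, log2 2.43, SE 0.25, adjusted *P* = 8.4e-05, edgeR), and was the 1 ligand that fell in late KO MEFs, where 0.0354% of all genes fell (9.20 ± 0.467 CPM, n = 3, log2 −2.16, SE 0.28, adjusted *P* = 0.0204). In late DKO MEFs, where 3.95% of all genes fell, 3 of 11 ligands fell, *Ccl3*, *Ccl6* and *Ccl9* (log2 −3.32, −3.21 and −3.51, adjusted *P* = 0.0040, 0.0157 and 0.0077). *Ccl3*, which binds CCR1, rose from 2.73 ± 1.52 to 26.3 ± 9.55 CPM in WT MEFs of that set and was at 2.63 ± 0.812 CPM in DKO MEFs. *Ccl2*, the ligand of CCR2, was at 142 ± 62.4 CPM in late WT and at 137 ± 33.9 CPM in late DKO MEFs (adjusted *P* = 0.962). *Cxcl12*, the ligand of CXCR4, was at 654 ± 72.7 CPM in early WT MEFs and 674 ± 289 CPM in late WT MEFs of the *S6K1* set, and at 1300 ± 231 CPM in late KO MEFs (log2 0.94, SE 0.30, adjusted *P* = 0.313). *Cx3cl1* and *Rarres2*, which encodes chemerin, passed in none of the comparisons.

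**Figure D4:**
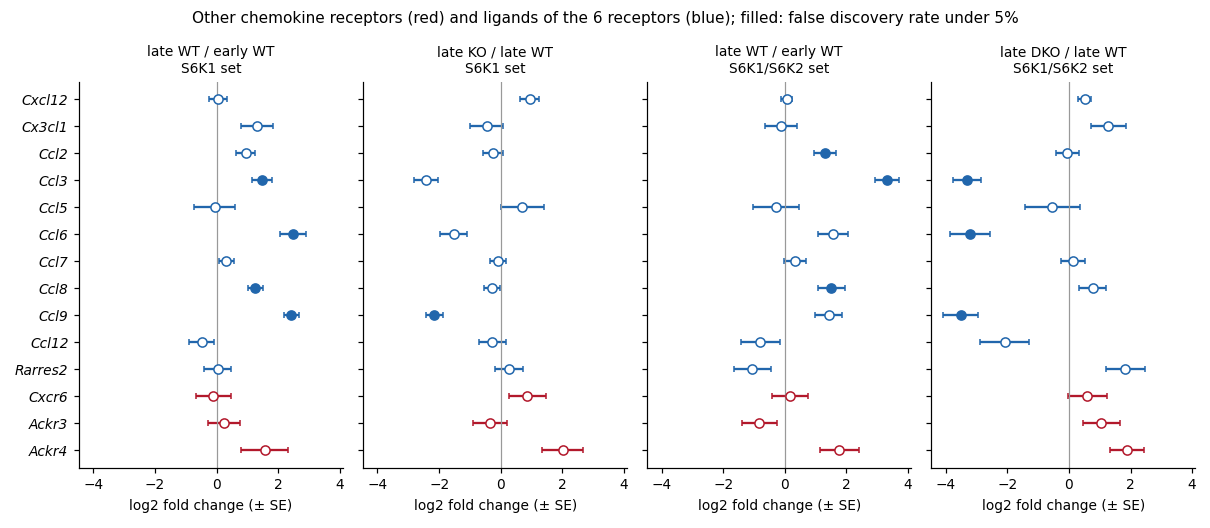
Log2 fold change (horizontal axes, bars are 1 SE) of 11 ligands (blue) and 3 other receptors (red) in 4 comparisons. Filled points passed a false discovery rate of 5%. *Ccl3*, *Ccl6* and *Ccl9* are filled and below 0 for late DKO against late WT MEFs, and *Cxcl12* and *Cx3cl1* are filled in no panel.

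Of 24 genes that act downstream of these receptors, 22 passed the filter in each set. With passage 10 rose in the *S6K1* set and 11 in the *S6K1/S6K2* set, and none fell, where 6.96% and 8.28% of all genes rose. None passed in late KO MEFs, and 10 fell in late DKO MEFs, where 3.95% of all genes fell. The median log2 fold change of the 22 was 0.39 and 0.77 with passage, −0.44 in late KO and −0.70 in late DKO MEFs, against −0.04, 0.01, −0.01 and −0.01 over all genes tested. The general G protein subunits *Gnai2*, *Gnai3*, *Gnb1* and *Gnb2* had log2 fold changes of −0.23 to 0.11 with passage, and none passed. *Vav1*, *Rac2* and *Dock2*, which encode a Rac of blood cells (*Rac2*) and activators of Rac (*Vav1* and *Dock2*), rose with passage (log2 2.94, 2.44 and 2.35 in the *S6K1* set and 2.64, 2.30 and 2.25 in the *S6K1/S6K2* set) and fell in DKO MEFs (log2 −2.46, −2.23 and −2.73). So did *Pik3cg*, the catalytic subunit of PI3Kγ (2.67, 2.44 and −2.16), its regulatory subunit *Pik3r5* (2.45, 2.04 and −1.70), the DOCK partner *Elmo1* (1.91, 2.14 and −1.80) and the β-arrestin genes *Arrb1* (2.09, 1.52 and −1.19) and *Arrb2* (1.62, 1.67 and −2.02). The macrophage markers had medians of 2.96, 2.57 and −2.33 in the same comparisons. Their part in the differences of these signaling genes was not tested. The kinases *Grk5* and *Ptk2b* rose with passage in both sets (log2 1.03 and 1.11, and 0.63 and 0.77) and did not pass in DKO MEFs, where *Grk2* fell (log2 −0.55, SE 0.12, adjusted *P* = 0.0266, edgeR). *Rgs1*, which shortens G protein signaling, stood apart: it was at 5.19 ± 3.53 and 3.39 ± 0.998 CPM in early and late WT MEFs of the *S6K1* set, and at 1.24 ± 0.976 and 62.5 ± 17.9 CPM in those of the *S6K1/S6K2* set (log2 5.72, SE 0.59, adjusted *P* = 0.00038, edgeR). Its passage effect differed between the sets by 6.31 (SE 0.79, adjusted *P* = 0.00012), the same direction as that of *Ccrl2*, and *Rgs1* fell in DKO MEFs to 12.5 ± 9.43 CPM (log2 −2.32, SE 0.54, adjusted *P* = 0.0348).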

How the data were processed

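RNA-seq was analysed in 22 libraries of serially passaged MEFs, each 1 replicate. The deposited values are raw counts of reads per gene, without normalization, made by the authors. The study's methods name TopHat, HTSeq and build mm9, whereas the submitters' processing notes name CASAVA, STAR 2.7.1a, DESeq2 1.28.1 and build mm10. Of 55401 identifiers, 22812 are absent from the GENCODE vM1 annotation of mm9. The annotation release, the strand setting and the handling of reads shared by paralogs are not given in the sources used here. Positions and promoter windows are therefore given on GRCm38.p6 (RefSeq), and exon lengths come from vM1.

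In R 4.3.3, edgeR 4.0.16 was used with filterByExpr, TMM scaling, a robust quasi-likelihood fit on the 3 groups of a set and Benjamini-Hochberg adjustment over all genes tested. Interactions used all 22 libraries. Log2 CPM used a prior count of 2. Likeness was computed over genes that passed the filter in both sets with a mean of at least 1 CPM. No covariate or block was used. The edgeR test was tried on simulated counts for the genotype comparisons, where 200 genes with a mean above 1 CPM were changed by log2 2. It found 92% and 86% of them in the *S6K1* and *S6K1/S6K2* sets, and 3.16% and 4.97% of calls were false. Changes in genes at lower levels, passage and interaction tests, and litter or sex were not simulated. Genes were named by a rule: the 6 receptors in every comparison, *Rps6kb1* and *Rps6kb2* as a check of the labels, genes of the other lists that passed a false discovery rate of 5% in a passage or genotype comparison, and the 3 genes most like each receptor. Other genes named with values, *Ackr4* and the G protein genes among them, were chosen after these were seen. The receptors, the lists and the rule were chosen with earlier results of these data known. Of the other receptors, 1 is not reported here. Alternatives were DESeq2 1.42.0, RLE scaling, no filter on low counts, a fit on the 2 groups compared, a fit over all 6 groups at once, a covariate for embryo sex (mean log2 CPM of the Y-linked genes), total-count scaling of levels, a prior count of 0.5 and leaving out each library in turn.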

Additional observations from a re-analysis of the deposited data

Results flagged for a closer look

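*Cxcr4* had 1 early WT library of the *S6K1* set, the fourth, at 0.257 CPM (3 counts), far below the others at 0.884 to 0.958 CPM. *Cx3cr1* had 1 late WT library of the same set, the first, at 156 CPM, far above the others at 49.0 to 66.8 CPM. These were 2 of 22 combinations of receptor and group tested for a library that stood apart, and chance gives about 1 in 20. Late KO and late DKO MEFs, with 3 libraries each, were not tested in this way. Between the sets, the passage effect differed for *Ccrl2* by 3.42 and for *Rgs1* by 6.31 on the log2 scale, larger in the *S6K1/S6K2* set. The genotype effect on *Rps6kb2*, the gene knocked out in that set only, differed by −4.24 (adjusted *P* = 4.0e-06, edgeR).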

How the results depend on the processing

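No paired analysis was possible because the labels carry no replicate numbers that groups share, and tie no libraries to a litter. With DESeq2, genes called numbered 261 (late KO against late WT), 2675 (late KO against early WT), 2845 (passage, *S6K1/S6K2* set), 1206 (late DKO against late WT), 222 (passage effect between sets) and 64 (genotype effect between sets), and 1 receptor was called in late KO against late WT MEFs. Without a filter these were 43 for late KO against late WT and 3 for the genotype effect between sets, and 1 receptor passed between late KO and early WT. With the Y-linked covariate 3265 genes (passage, *S6K1* set) and 38 (late KO against late WT) passed, and on all 6 groups 16 (late KO against late WT) and 2564 (late KO against early WT). The cause was not tested.

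Leaving out 1 library gave 1223 to 1749 genes for passage and 2 to 9 for late KO against late WT in the *S6K1* set, 540 to 2055 for late KO against early WT, 885 to 2247 for passage and 97 to 783 for genotype in the *S6K1/S6K2* set, 1163 to 2757 for late DKO against early WT, and 78 to 118 and 1 to 5 for the differences between sets. Receptors called were then 1 to 3 for late KO against early WT and 0 to 3 for late DKO against late WT. Log2 values that changed sign without 1 library never passed: *Cmklr1* with passage in the *S6K1* set (−0.31 to 0.11), *Ccrl2* in late KO against early WT MEFs (−0.38 to 0.33), and the passage effect between sets of *Cx3cr1* (−0.50 to 0.31, and 0.10 with the covariate) and *Ccr1* (−0.60 to 0.42). With 3 to 5 counts per library, *Ccrl2* in early WT and *Ccr1* in DKO MEFs of the *S6K1/S6K2* set are limited by depth.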
